A study of Mus musculus with 12 samples.

Results

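The aryl hydrocarbon receptor system was followed as 7 genes in RNA sequencing libraries from mouse liver. The genes were Ahr, Arnt, Ahrr, Tiparp, Cyp1a1, Cyp1a2 and Cyp1b1, chosen by symbol, and each matched 1 of the 41128 genes in the table. The libraries came from 12 C57BL/6 mice killed at 6 weeks of age, 1 library per mouse and 3 mice in each of 4 groups. Germ-free (GF) males and females had stayed in sterile isolators throughout, whereas conventionalized (CV) males and females had left the isolators at weaning on day 21 and spent 3 weeks on soiled bedding from the animal facility. Exposure to microbes and the move out of the isolator therefore cannot be told apart, and the labels do not say which mice shared a litter or a cage. The GF and CV mice were littermates according to the labels. Values are normalized read counts, that is, reads per gene divided by 1 size factor for each library.

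The aryl hydrocarbon receptor (AHR) is a ligand-activated transcription factor of the bHLH-PAS family. It waits in the cytosol in a complex with heat shock protein, moves into the nucleus once a ligand binds, pairs there with ARNT, and switches on genes that carry its recognition core. Its ligands include combustion products, plant indoles and tryptophan metabolites, among them some made by gut bacteria. The classical targets in liver are the CYP1 enzymes, which oxidize many of these ligands, together with the repressor AHRR and the ADP-ribosyltransferase TIPARP, which both act back on the receptor.

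The recognition core of the AHR-ARNT pair, GCGTG or its reverse complement CACGC, was searched in the 250 bases before the RefSeq transcription start on both strands. Windows of 6 of the 7 genes were present in the sequences used, all except Ahr. At least 1 core was present in 28.2% of the 32851 mouse promoter windows and at least 2 in 8.63%. The transcripts of Cyp1a1, Cyp1a2 and Tiparp are set side by side in the comparisons that follow, for which Ahrr was too low. The windows of these 4 target genes are shown, from a target with several cores to one with none. They are RefSeq sequence from build GRCm38.p6, read 5′ to 3′ on the strand of the gene, with each core in capitals.
Cyp1a1: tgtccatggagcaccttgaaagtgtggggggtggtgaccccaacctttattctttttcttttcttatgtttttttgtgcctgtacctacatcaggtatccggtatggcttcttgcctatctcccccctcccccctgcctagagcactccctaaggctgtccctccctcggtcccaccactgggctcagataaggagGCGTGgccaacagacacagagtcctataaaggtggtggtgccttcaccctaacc
Cyp1a2: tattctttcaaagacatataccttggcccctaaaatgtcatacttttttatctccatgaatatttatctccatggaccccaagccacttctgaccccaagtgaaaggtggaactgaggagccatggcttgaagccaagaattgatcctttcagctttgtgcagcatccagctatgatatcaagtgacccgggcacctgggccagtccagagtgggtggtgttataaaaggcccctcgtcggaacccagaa
Ahrr: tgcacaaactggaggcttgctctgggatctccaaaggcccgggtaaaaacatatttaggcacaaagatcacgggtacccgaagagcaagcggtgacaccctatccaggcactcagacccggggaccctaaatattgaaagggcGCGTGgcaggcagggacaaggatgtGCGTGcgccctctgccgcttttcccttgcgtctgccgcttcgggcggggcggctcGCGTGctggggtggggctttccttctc
Tiparp: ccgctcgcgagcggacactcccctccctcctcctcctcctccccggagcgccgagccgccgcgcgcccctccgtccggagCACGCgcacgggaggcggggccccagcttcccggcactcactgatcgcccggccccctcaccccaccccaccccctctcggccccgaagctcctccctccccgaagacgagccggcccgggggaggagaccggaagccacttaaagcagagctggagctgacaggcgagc

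These windows lie at chr9:57697363-57697612 on the + strand (Cyp1a1), chr9:57683656-57683905 on the - strand (Cyp1a2), chr13:74292332-74292581 on the - strand (Ahrr) and chr3:65528197-65528446 on the + strand (Tiparp). Ahrr held 3 cores, Cyp1a1 and Tiparp 1 each, and Cyp1a2 none in this window. The Cyp1a1 core lay at positions -54 to -50 before the start, and the Tiparp core lay on the opposite strand at -170 to -166. Arnt and Cyp1b1 held 1 core each, Arnt at -29 to -25 and Cyp1b1 at -76 to -72. Cyp1a1 and Cyp1a2 are neighbours on chromosome 9, transcribed away from each other from starts 13958 bases apart. A match describes these letters only and says nothing about occupancy. Sequence further from the start was not searched, so a window without a core does not describe the rest of the gene.

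In the GENCODE annotation of GRCm38 all 7 are protein-coding genes, Ahr at chr12:35497974-35535038, Arnt at chr3:95434388-95497240, Ahrr at chr13:74211118-74292331, Tiparp at chr3:65528410-65555518, Cyp1a1 at chr9:57687928-57703824, Cyp1a2 at chr9:57676937-57683703 and Cyp1b1 at chr17:79701537-79715061. The 7 genes covered a wide range of expression. Levels are given as the mean normalized read count over all 12 libraries and as the same value per kilobase of exon, on which genes can be compared. Cyp1a2, the CYP1 enzyme that hepatocytes make constitutively, had a mean normalized read count of 8093, and its 4020 per kilobase lay above 99.3% of the genes tested. Ahr itself followed at 374 (60.6 per kilobase, above 75.4% of genes). Arnt stood at 104 (12.9 per kilobase), Cyp1a1, the inducible enzyme, at 26.5 (9.53 per kilobase) and Tiparp at 40.6 (9.31 per kilobase). Cyp1b1, which is made mainly outside hepatocytes, stood at 6.60 (1.13 per kilobase) and Ahrr at 0.371 (0.0393 per kilobase). Ahrr and Cyp1b1 were below the mean value of 10 that was required for the test across genes, so 5 of the 7 genes were tested, among 11782 in all.

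Library composition differed between the conditions. Recovered reads ranged from 5993619 to 15290835 per library. The 6 abundant loci were the mitochondrial rRNA genes, Lars2 and 3 predicted genes. They took 40.9% to 68.5% of the reads in GF libraries but 5.10% to 21.3% in CV libraries. Reads outside these loci numbered 1886932 to 5399556 in GF and 6994374 to 14453077 in CV libraries. The library labelled CV male 3 had 0 reads on the Y-linked genes examined and an Xist value of 2382, against 796 to 1314 Y-linked reads in the other libraries labelled male, so it went against its label, and the male changes of the tested genes are given with and without it. Hepatocyte markers defined the tissue as labelled: all 6 were expressed in every group, and their summed normalized read count was 99389 to 436889 in GF and 386316 to 605548 in CV libraries. Of the 6, 5 rose and none fell, with a median change of 1.09 on the log2 scale. With reads outside the 6 abundant loci as the denominator, 3 rose and 1 fell. After removal of a trend on transcript length and GC content, 2 rose and none fell. Among all tested genes 32.3% rose and 28.7% fell, which is the background for this and the following marker counts. Lymphocyte markers moved down with conventionalization (4 of the 4 tested fell, with a summed normalized read count of 197 to 346 in GF against 74.5 to 107 in CV libraries), as did the 3 hemoglobin genes among 4 erythroid markers (summed values of 2216 to 26839 against 763 to 2631). Of 6 Kupffer cell markers 3 rose, and none of 5 cholangiocyte markers passed the test. Of 6 endothelial markers only Stab2 passed, downward (-1.87), and of 2 tested myeloid markers only Lyz2, upward (2.05). The part of these cell types in the results that follow was not tested. In whole liver, fewer cells of a type and less RNA per cell cannot be told apart.

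**Figure D1:**
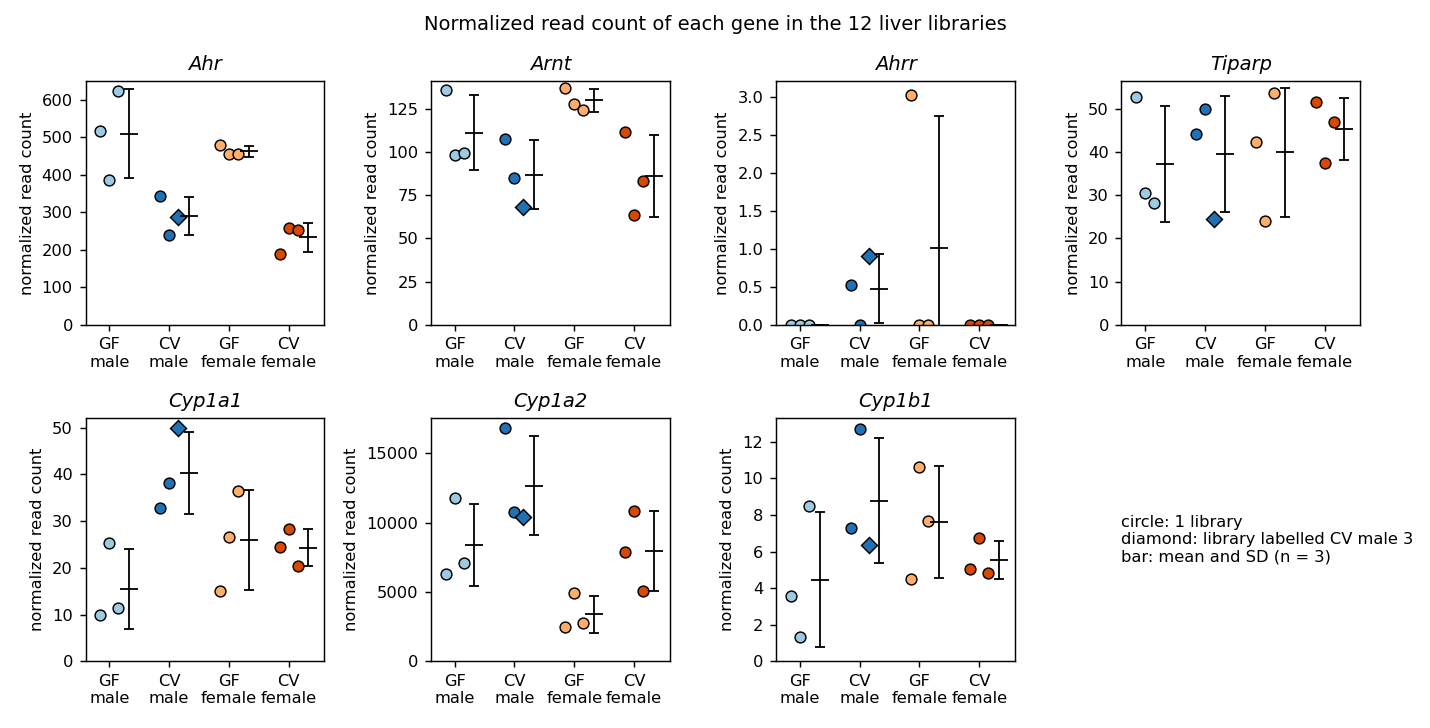
Normalized read count (vertical axes, linear from 0) of each of the 7 genes in GF and CV livers of both labelled sexes; each point is 1 library, bars are mean and SD of 3 libraries, and the diamond is the library labelled CV male 3. Ahr lies at 188 to 343 in all CV libraries and at 387 to 625 in all GF libraries, whereas the Tiparp groups overlap.

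The receptor gene Ahr was lower in every CV library than in every GF library. In GF males its normalized read count was 516, 387 and 625, and in CV males it was 343, 240 and 286. In GF females it was 479, 455 and 454, and in CV females 188, 258 and 253. The highest CV library and the lowest GF library, both male, were 343 and 387, so the 6 libraries of each condition did not overlap, which was so in the downward direction for 15.7% of all genes. Over both sexes Ahr fell by 0.90 ± 0.17 (SE) on the log2 scale, to 0.536 of the GF level (adjusted p = 0.000276, limma, n = 6 per condition). It fell in each sex, by 0.80 ± 0.24 in males (adjusted p = 0.0218, limma) and by 1.00 ± 0.24 in females (adjusted p = 0.00232, limma). Without the library labelled CV male 3 the male change was -0.80 ± 0.28 (adjusted p = 0.0470, limma). Both calls within a sex were lost when scaled to all reads (-0.49 in males and -0.19 in females) and after removal of a trend on transcript length and GC content (-0.51 in each). The male call was also lost without GF male 1 (-0.78), without GF male 3 (-0.64) or without CV male 2 (-0.67).

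Arnt, the nuclear partner that AHR shares with the hypoxia-inducible factors, was lower to a smaller degree. Its normalized read count was 136, 98.5 and 99.2 in GF males and 108, 85.1 and 68.1 in CV males. In the female groups it was 137, 128 and 125 in GF and 111, 63.8 and 83.1 in CV livers. The female libraries did not overlap, as in 64.9% of all genes, whereas CV male 1 exceeded 2 of the 3 GF males. Over both sexes Arnt fell by 0.49 ± 0.19 on the log2 scale (adjusted p = 0.0322, limma). Neither sex alone passed the threshold, with changes of -0.36 ± 0.27 in males (adjusted p = 0.321, limma; -0.20 ± 0.30 without the library labelled CV male 3) and -0.62 ± 0.27 in females (adjusted p = 0.0563, limma). The female change passed with TMM factors (adjusted p = 0.0358), with voom (adjusted p = 0.0487), with reads outside the abundant loci (-1.21, adjusted p = 0.00366) and with a minimum mean value of 50 (adjusted p = 0.0444). In females it was 0.18 when scaled to all reads (adjusted p = 0.654, limma) and -0.44 after removal of a length and GC trend (adjusted p = 0.139, limma). The call over both sexes was lost under these 2 settings as well, at 0.06 and -0.34. It was also lost without CV male 2, CV male 3, CV female 2, CV female 3, GF male 1 or GF female 1, with changes from -0.49 to -0.39. In the annotation, Ahr overlaps the antisense gene Gm48236 and Arnt overlaps the pseudogene Gm42672 on its own strand, neither of them a row of the table, and reads shared with them could not be separated.

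Cyp1a2 oxidizes caffeine and aromatic amines and is the most abundant CYP1 enzyme of liver. In males its normalized read count was 6283, 11767 and 7076 in GF and 16813, 10767 and 10423 in CV livers. The female libraries had 2486, 4916 and 2802 in GF and 7905, 10808 and 5068 in CV livers. The female groups did not overlap, as in 64.9% of all genes, and GF male 2 lay above 2 of the 3 CV males. Over both sexes Cyp1a2 rose 1.89-fold, by 0.92 ± 0.27 on the log2 scale (adjusted p = 0.00748, limma). It rose in females by 1.22 ± 0.38 (2.33-fold, adjusted p = 0.0124, limma), a call lost without CV female 2 (0.96) or GF female 1 (1.03). In males the change of 0.62 ± 0.38 did not pass the threshold (adjusted p = 0.232, limma), nor did it without the library labelled CV male 3 (0.74 ± 0.43, adjusted p = 0.215). It passed in males when scaled to all reads (0.93, adjusted p = 0.0419, limma), and the female call was lost with reads outside the 6 abundant loci (0.63, adjusted p = 0.0809) and after removal of a length and GC trend (0.57).

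Cyp1a1, the enzyme most often read as a gauge of AHR activity, was counted with few reads. There were 8 to 19 per GF library and 34 to 63 per CV library, so the GF side rests on the fewest. In males its normalized read count was 9.85, 25.3 and 11.3 in GF and 32.8, 38.2 and 49.97 in CV livers. In females it was 15.1, 26.6 and 36.4 in GF and 24.4, 28.2 and 20.5 in CV livers. The male groups did not overlap, as was so for 43% of all genes, and the female CV values lay inside the GF range. In males Cyp1a1 rose 2.68-fold, by 1.42 ± 0.41 on the log2 scale (adjusted p = 0.0183, limma), and in females the change was -0.02 ± 0.41 (adjusted p = 0.971, limma, 95% interval -0.89 to 0.85). The male change was 1.26 ± 0.47 without the library labelled CV male 3, which was also the highest of all, and it then missed the threshold (adjusted p = 0.0611, limma). It missed it too without GF male 1 (1.18) or GF male 3 (1.27). Over both sexes the change was 0.70 ± 0.29 (adjusted p = 0.0469, limma), a call that edgeR, DESeq2 and voom on the recovered reads did not make (changes of 0.62, 0.66 and 0.69) and that was kept in only 3 of the 12 fits with 1 library left out, those without CV male 1, GF male 2 or GF female 3. The difference between the female and the male change of Cyp1a1 was -1.44 ± 0.58 (unadjusted p = 0.0246, adjusted p = 0.417, limma), or -1.28 ± 0.64 without the library labelled CV male 3, and an unadjusted p under 0.05 for this difference was found for 11.7% of all genes.

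Tiparp, which attaches ADP-ribose to AHR and shortens its activity, showed no change that the test could detect. Its normalized read count was 52.8, 30.6 and 28.3 in GF males and 44.2, 50.1 and 24.5 in CV males. The female libraries had 42.3, 23.9 and 53.7 in GF and 51.7, 37.6 and 47.0 in CV livers. Both pairs of groups overlapped throughout. Over both sexes the change was 0.16 ± 0.26 on the log2 scale (adjusted p = 0.608, limma), with a 95% interval from -0.39 to 0.71. In males it was 0.08 ± 0.37 (adjusted p = 0.887, limma), and 0.38 ± 0.39 without the library labelled CV male 3. Tiparp rested on 9 to 59 reads per GF library and 27 to 123 per CV library. It overlaps 4931440P22Rik on the opposite strand, and the strand setting of the counting is not given in the sources used here.

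In all, 4 of the 5 tested genes passed the threshold over both sexes, Ahr and Arnt downward and Cyp1a1 and Cyp1a2 upward, against 61.1% of all genes tested (32.3% upward and 28.7% downward). In males 2 of 5 passed, Ahr and Cyp1a1, against 29.5% of genes. In females 2 of 5 passed, Ahr and Cyp1a2, against 55.8% of genes. These shares are near the background. No gene of the 5, and none of the 11782, passed for the difference between the sexes in the response (0 called by limma, 1382 genes at an unadjusted p under 0.05), and edgeR called none of the 5 for it either; DESeq2 gave no adjusted p for 4 of them.

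**Figure D2:**
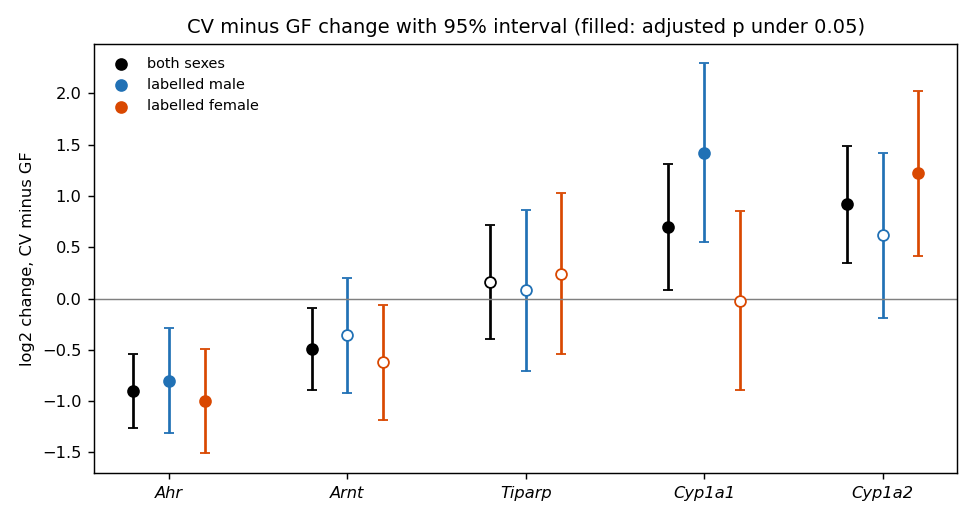
Change of each tested gene from GF to CV livers (vertical axis, log2 of normalized read count plus 1) over both sexes and in each labelled sex, with 95% intervals from limma; filled points passed an adjusted p of 0.05. Ahr lies below 0 in all 3 comparisons, and Cyp1a1 is at 1.42 in males and -0.02 in females.

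Ahrr and Cyp1b1 were too low for the test across genes and are given as reads. Ahrr, a repressor that competes with AHR for ARNT, had 2 reads in the GF libraries together and 2 in the CV libraries together. These fell in 3 libraries, GF female 1 (2 reads, a value of 3.02), CV male 1 and CV male 3 (1 read each), and the other 9 libraries had none, which allows a normalized read count of up to 1.26 to 7.98 depending on the library (3 reads, counting error only). The mean values of 0.503 in GF and 0.238 in CV livers did not differ beyond their spread (two-sided exact permutation test within sex, p = 1). At this depth a change of Ahrr was not detectable.

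Cyp1b1, which is expressed mainly in mesenchymal and steroid-responsive cells, was read in all 12 libraries, with 1 to 6 reads in GF and 7 to 16 in CV. Its normalized read count was 3.58, 1.33 and 8.50 in GF males and 7.29, 12.7 and 6.36 in CV males. The female libraries had 4.53, 10.6 and 7.67 in GF and 5.05, 6.72 and 4.82 in CV livers. Every pair of groups overlapped. The mean was 6.04 in GF and 7.16 in CV livers, a difference of 1.12 (the mean of CV males was 8.79, and 10.0 without the library labelled CV male 3; two-sided exact permutation test within sex, 400 relabellings, p = 0.575; the smallest p this design allows is 0.005). The stellate cell markers, which stand for a mesenchymal cell type of liver, summed to 2060 to 4006 in GF and 2351 to 4161 in CV libraries. Of these 7 markers 2 rose and 1 fell, against 32.3% upward and 28.7% downward of all genes tested. With reads outside the 6 abundant loci none rose and 1 fell, and after removal of the length and GC trend 5 rose and none fell.

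The sexes were compared within each condition. In GF livers Cyp1a2 was higher in all 3 males than in all 3 females (6283 to 11767 against 2486 to 4916), a separation in that direction that 10.2% of genes showed. The difference was 1.31 ± 0.38 on the log2 scale, 2.48-fold, and did not pass the adjusted threshold (adjusted p = 0.0934, limma); 1.63% of genes passed it. In CV livers the libraries labelled male had more Cyp1a1 than every female library (32.8 to 49.97 against 20.5 to 28.2), as 6.57% of all genes did, the difference being 0.69 ± 0.41 (adjusted p = 0.946, limma), and 0.53 ± 0.47 without the library labelled CV male 3. None of the 5 genes passed in either condition, and in CV livers 0.0594% of all genes did (7 genes).

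Because the abundant loci took different shares of the reads, the change of each gene depended on how the libraries were scaled. With all reads as the denominator the median change of all tested genes was 0.62 on the log2 scale, with the deposited scaling it was 0.07, and with reads outside the 6 loci it was -0.35. Ahr stayed below 0 under each of these, at -0.34, -0.90 and -1.34, and passed the threshold under the last 2 (adjusted p = 0.157 with all reads). Arnt went from 0.06 with all reads to -0.92 outside the loci. Cyp1a2 went from 1.48 to 0.48 (adjusted p = 0.0582 outside the loci) and Cyp1a1 from 1.24 to 0.28. Tiparp changed sign, from 0.71 to -0.27, without passing the threshold under either scaling.

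A scaling moves all genes of a library by the same factor, so the distance of a gene from the median of all genes is nearly fixed by construction. The difference from the median was -0.98 to -0.96 for Ahr and -0.57 to -0.56 for Arnt under all 3 scalings. It was 0.83 to 0.86 for Cyp1a2, 0.62 to 0.63 for Cyp1a1 and 0.08 to 0.09 for Tiparp. A trend on transcript length and GC content was also removed in each library. The changes themselves, not distances from the median, were then -0.51 for Ahr (adjusted p = 0.0142, limma) and -0.34 for Arnt. They were 0.44 for Cyp1a1, 0.43 for Cyp1a2 and 0.45 for Tiparp, with only Ahr past the threshold. The median of all tested genes was then 0.12. The distance from it was -0.63 for Ahr, -0.46 for Arnt and 0.32 for Cyp1a1.

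**Figure D3:**
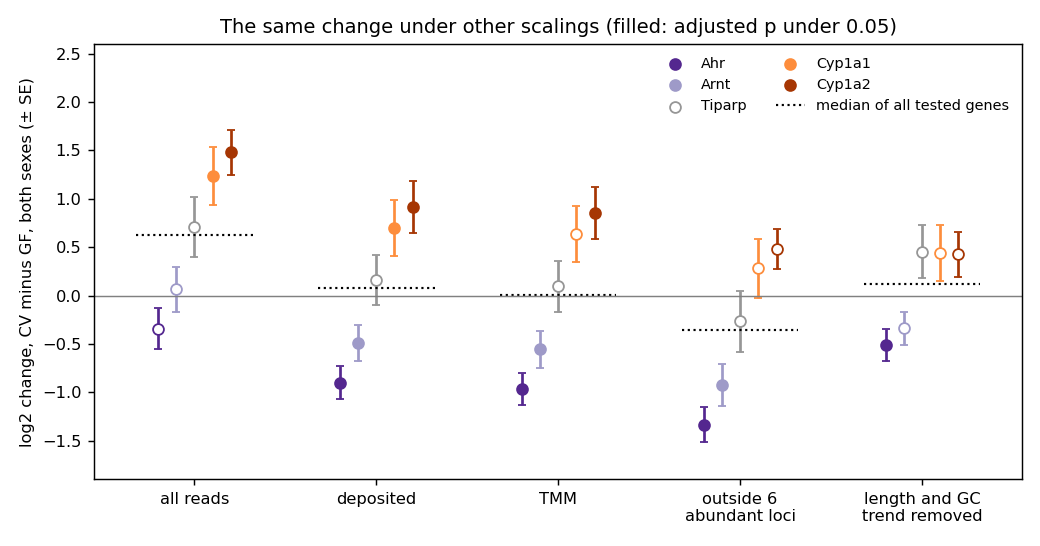
Change of each tested gene over both sexes (vertical axis, log2, CV minus GF, with SE) under 4 scalings and after removal of a length and GC trend; filled points passed an adjusted p of 0.05 and dotted lines are the median change of all tested genes. Ahr goes from -0.34 with all reads to -1.34 outside the abundant loci and Cyp1a2 from 1.48 to 0.48, and the dotted median goes from 0.62 to -0.35.

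A ratio between genes within a library does not depend on its scaling. All 10 ratios among the 5 tested genes were therefore compared between conditions, with a two-sided exact permutation test within labelled sex (400 relabellings) and adjustment over the 10. The ratio of Cyp1a2 to Ahr reads on the log2 scale was 3.61, 4.93 and 3.50 in GF males and 5.62, 5.49 and 5.19 in CV males. In females it was 2.38, 3.43 and 2.62 in GF and 5.39, 5.39 and 4.32 in CV livers. Within each sex every CV library lay above every GF library. How many genes separate in this way against Ahr was not counted, and Ahr alone did not overlap between the conditions. The mean difference was 1.82, a 3.53-fold higher ratio of enzyme to receptor transcript in CV livers (exact p = 0.005, adjusted p = 0.0167). It was 1.88 without the library labelled CV male 3 (exact p = 0.010). The ratios were computed without removal of a length and GC trend, so differences of that kind between libraries stay in them. In single genes over both sexes, its removal put Ahr at -0.51 instead of -0.90 and Cyp1a2 at 0.43 instead of 0.92. Cyp1a1 was then at 0.44 instead of 0.70, Arnt at -0.34 instead of -0.49 and Tiparp at 0.45 instead of 0.16. How far the ratios depend on it was not tested.

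The ratio of Cyp1a1 to Ahr separated all 6 CV from all 6 GF libraries, a separation that was not counted over all genes. On the log2 scale it ranged from -5.78 to -3.64 in GF and from -3.63 to -2.52 in CV libraries, with GF female 3 (-3.64) and CV female 3 (-3.63) next to each other. The difference of 1.64 (3.11-fold, exact p = 0.005, adjusted p = 0.0167) was 2.29 in males (2.12 without the library labelled CV male 3) and 0.99 in females, and 1.55 over both sexes without the library labelled CV male 3. Tiparp also rose against Ahr, by 1.07 (2.10-fold, exact p = 0.010, adjusted p = 0.0250). These ratios have to be read against the background, since 61.1% of the 11781 other tested genes had a higher ratio to Ahr in CV livers at an exact p under 0.05 and 7.53% a lower one.

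Against Arnt, the differences were 1.41 for Cyp1a2 (exact p = 0.005, adjusted p = 0.0167), 0.66 for Tiparp (exact p = 0.015, adjusted p = 0.0300) and 1.23 for Cyp1a1 (exact p = 0.030, adjusted p = 0.05, which did not fall under the threshold). Without the library labelled CV male 3 the last was 1.07 (exact p = 0.055). The share of all genes with a higher ratio to Arnt was not computed, so these 3 differences have no background beside them. Arnt itself fell by 0.49 over both sexes, and Tiparp alone had a change of 0.16 that did not pass. The 2 partners of the receptor dimer did not differ detectably from each other, with a change in the Ahr to Arnt ratio of -0.41 (exact p = 0.1, adjusted p = 0.143). The 2 neighbouring enzymes did not either, with 0.18 for Cyp1a2 to Cyp1a1 (exact p = 0.695), which combined -0.87 in males (-0.58 without the library labelled CV male 3) and 1.24 in females. This last ratio ranged from 6.27 to 9.32 on the log2 scale across libraries; the 2 coding sequences are alike, and how reads that match both were counted is not given in the sources used here.

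**Figure D4:**
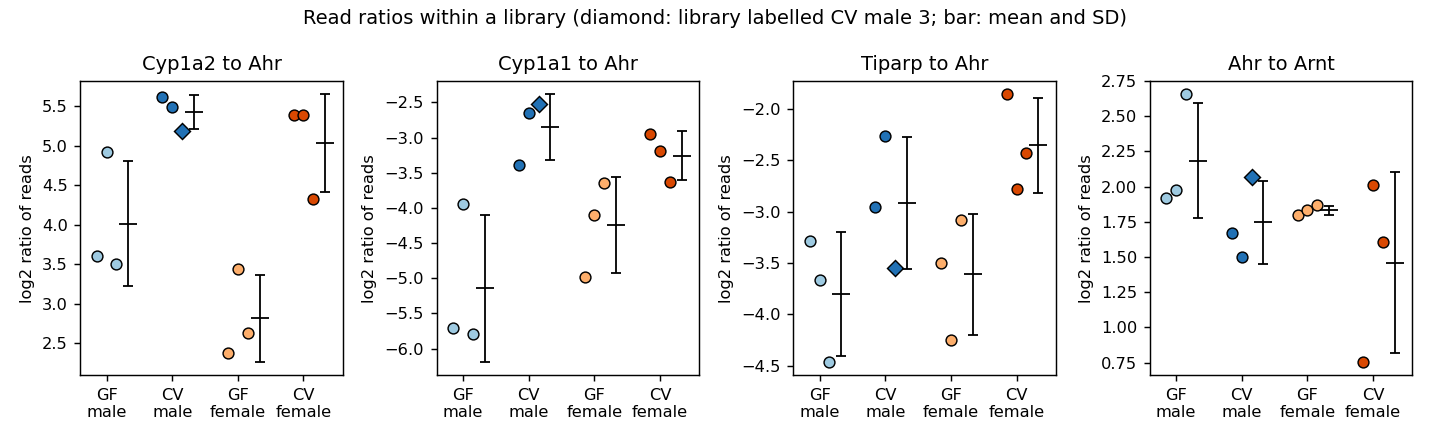
Ratio of reads between pairs of genes within each library (vertical axes, log2) for Cyp1a2, Cyp1a1 and Tiparp to Ahr and for Ahr to Arnt; points are libraries, bars are mean and SD of 3, and the diamond is the library labelled CV male 3. The Cyp1a1 to Ahr ratio is above -3.64 in all CV libraries and at or below it in all GF libraries.

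Genes whose level followed each of the 5 most closely over the 12 libraries were sought among 11148 tested genes with an established symbol, by Pearson correlation of log2(value + 1). The libraries share their condition, so these are descriptions. For Ahr they were Tmcc1 (r = 0.95), Rnmt (0.95) and Arhgef26 (0.94), and for Arnt they were Nrd1 (0.92), Slc26a6 (0.92) and Xpot (0.89). Cyp1a2 was followed by Nudt22 (0.96), the glutathione transferase gene Gstm6 (0.95) and Arl6ip1 (0.94), and Cyp1a1 by the lactate dehydrogenase gene Ldhb (0.85), Usp2 (0.84) and Gtf2f2 (0.84). Tiparp was followed by Fam172a (0.89), Cdk2 (0.87) and Fem1c (0.87). Among the 5 genes themselves the highest coefficient was that of Ahr with Arnt (0.57), and Cyp1a1 with Cyp1a2 gave 0.34.

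The genes that work with the receptor were counted in 7 lists, over both sexes and with the same test. Each count has to be read against all tested genes, of which 32.3% rose and 28.7% fell. The median change of all tested genes was 0.07, and none of the genes called in these 7 lists changed direction under another scaling. With reads outside the 6 abundant loci as the denominator, the medians of the cytosolic complex (-0.33), the inducible battery (-0.39) and the pericentral genes (-0.10) lay below 0. In the cytosolic complex that holds AHR before ligand binds, 1 of the 5 genes reported rose and 1 fell. The heat shock protein gene Hsp90ab1 rose by 0.54 ± 0.22 (adjusted p = 0.0464, limma), and the nuclear exporter Xpo1 fell by 0.84 ± 0.19 (adjusted p = 0.00131, limma). Without the library labelled CV male 3 the change of Hsp90ab1 was 0.48 (adjusted p = 0.0972, limma). The co-chaperone gene Ptges3 had a change of 0.53 ± 0.22 (adjusted p = 0.0518, limma), and the median of the 5 was 0.08. The partner and relative genes of the bHLH-PAS family had 6 tested of 10, of which none rose and 4 fell (2 rose and 2 fell with all reads), all 4 of them clock genes: Per1 (-1.81), Per2 (-1.47), Clock (-0.67) and Arntl (-0.81). The hypoxia factors Hif1a and Epas1, which also pair with ARNT, had changes of 0.27 and 0.29 and did not pass. After removal of the length and GC trend Clock turned to 0.31 (adjusted p = 0.0851, limma), Per1, Per2 and Arntl still fell, and Hif1a (0.61, adjusted p = 0.0105) and Epas1 (0.68, adjusted p = 0.00239) rose. The times of day at which the livers were taken are not in the labels.

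Other genes of the inducible AHR battery went both ways. Of 11 reported, 8 were tested, 2 rose and 3 fell, with a median of 0.04, against 32.3% upward and 28.7% downward of all genes tested. Aldh3a1, Gsta1 and Cyp2s1 were below the mean value of 10. Nqo1, a quinone reductase, rose by 1.46 ± 0.24, whereas Nfe2l2, the gene of the transcription factor NRF2, fell by 0.79 ± 0.17. Ugt1a6a fell by 1.35 ± 0.24 and its close relative Ugt1a6b rose, but these share exons, so the split of reads between them is uncertain.

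Of the 8 genes that supply cytochromes P450 with electrons or turn over heme, 6 rose and none fell, with a median of 1.17. Hmox2 rose by 1.66 ± 0.18, the heme-binding protein gene Pgrmc1 by 1.51 ± 0.25 and Por, the reductase that every microsomal P450 depends on, by 1.15 ± 0.20. Of the 9 tested genes for enzymes that lead from tryptophan towards AHR ligands, 5 rose and 1 fell, with a median of 0.86. Aadat rose by 1.30 ± 0.22, Ido2 by 1.13 ± 0.24 and Afmid by 1.36 ± 0.29, and Ido1 was at 0 in every library. Of all tested genes 32.3% rose. After removal of the length and GC trend, 5 of the 8 genes of electron supply and heme passed the threshold upward and none downward, and 5 of the 9 tryptophan genes did so upward and 1 downward. Of the cytosolic complex none passed then, with Xpo1 at -0.29 and Hsp90ab1 at 0.21.

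Cyp1a2 is a gene of the hepatocytes around the central vein, so genes of both ends of the lobule were counted. Of the 9 tested pericentral genes 3 rose (Cyp2e1, Gulo and Tbx3) and 1 fell (Slc1a2, -0.71), with a median of 0.34. Of all tested genes 32.3% rose and 28.7% fell. After removal of the length and GC trend Slc1a2 turned to 0.40 (adjusted p = 0.0618, limma). Of the 10 periportal genes 7 rose and none fell, with a median of 0.75 (2 rose and 2 fell with reads outside the abundant loci, and 3 rose and 1 fell after removal of the length and GC trend), led by Hsd17b13 (1.72), Cyp2f2 (1.64) and Hal (1.08). Glul, which marks the innermost pericentral cells, had a change of 0.48 (adjusted p = 0.111, limma). The change of Cyp1a2, 0.92, lay within the range of both lists (-0.71 to 1.58 and -0.34 to 1.72).

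**Figure D5:**
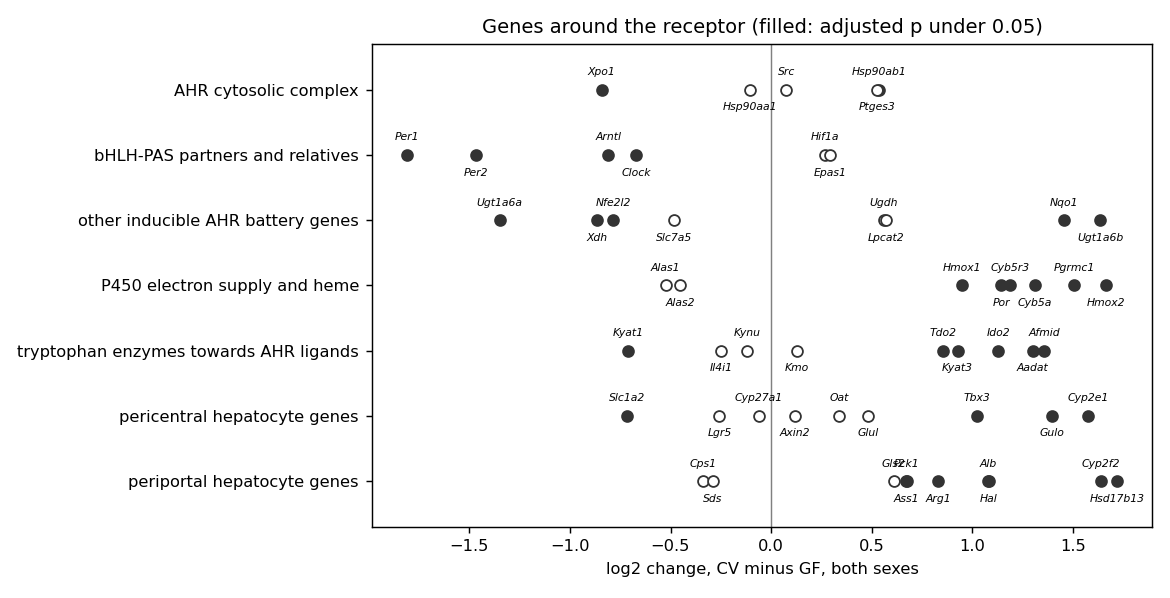
Change of the reported tested genes in 7 lists around the receptor (horizontal axis, log2, CV minus GF over both sexes); each point is a gene and filled points passed an adjusted p of 0.05. The electron supply and heme list has 6 of 8 genes filled to the right of 0, and the bHLH-PAS list has 4 of 6 filled to the left.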

How the data were processed

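Liver RNA from 12 mice was sequenced with stranded mRNA libraries. The submitters' processing notes name HTSeq 0.6.1p1, DESeq2 and build GRCm38; the aligner and the annotation are not given in the sources used here. The deposited unit is a signal: the authors divided the read counts of each gene by 1 size factor per library. Dividing each value by what 1 read was worth in its library gave a whole number for 100% of values (tolerance 0.01 reads), so whole reads were recovered. The paper given with the series describes another experiment, and no method was taken from it.

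Groups came from the sample titles. The main test was limma 3.58.1 (R 4.3.3) on log2(value + 1) for genes with a mean value of at least 10 over the 12 libraries (11782 genes), with 1 mean for each of the 4 groups, a variance trend, Benjamini-Hochberg adjustment and a threshold of 0.05. Fold changes are on that log2 scale and understate the change of low genes. Genes under the minimum, and ratios within a library, were compared by exact permutation within labelled sex, which with 3 against 3 in a single sex cannot go below p = 0.1. As alternatives, edgeR 4.0.16 (quasi-likelihood, 7634 genes called over both sexes) and DESeq2 1.42.0 were run on the recovered reads, along with voom, other scalings, minimums and pseudocounts, thinning, removal of a loess trend on length and GC content, the mitochondrial rRNA share as covariate, a replicate block and each library left out in turn. The fit was tested on simulated data with known changes. There few genes changed, equally upward and downward, and library composition was the same in both conditions. It therefore does not cover the difference in composition of these libraries. Deviations of same-numbered libraries correlated positively between the sexes in CV livers (0.19, 0.12 and 0.17) and in GF livers (0.059, 0.40 and 0.068). Between GF and CV livers of 1 labelled sex the correlations lay between -0.23 and 0.019. These values do not decide whether the numbers mark pairs. Between the sexes in CV livers the block changed no call.

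The 7 genes and the lists around them were chosen with earlier results of these data known. All 7 genes are named, with the 3 smallest adjusted p-values of each list and the 3 most alike genes of each tested gene. Arntl, Hif1a, Epas1, Ugt1a6b, Ido1, Glul, Slc1a2 and the untested battery genes were named after their values were seen. A gene of the cytosolic complex list and a gene of the battery list are not reported here, and the counts leave them out. The 6 abundant loci were those of the mitochondrial rRNA, Lars2 and predicted genes holding at least 1% of reads. Names, lengths and coordinates came from GENCODE M21 (97.9% of identifiers matched). Each library came from another mouse, and p-values measure the spread between mice. Floors of 3 reads allow for counting error and nothing else, because without molecular identifiers several reads can stem from 1 molecule.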

Additional observations from a re-analysis of the deposited data

Results flagged for a closer look

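Of 14 sets of 6 libraries (the 7 genes in each condition), 1 held a library far from the rest. Ahrr in GF livers was 0 in 5 libraries and 3.02 in GF female 1, which rests on 2 reads. With 5 libraries at 0, any read in the sixth would have stood apart in the same way.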

How the results depend on the processing

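The number of the 5 tested genes called over both sexes was 4. It was 2 with all reads as the denominator (Cyp1a1 and Cyp1a2, upward) and 2 with reads outside the 6 abundant loci (Ahr and Arnt, downward). These 2 denominators thus had no called gene in common. With TMM factors Cyp1a1 lost its call (adjusted p = 0.0695, limma). The number called was 1 after removal of the length and GC trend (also 1 with the replicate block added), 2 at a threshold of 0.01, and 2 to 4 with 1 library left out. In males it was 2, and 1 with a minimum mean value of 50, which removes Cyp1a1 from the test, 1 outside the loci, 1 after trend removal, 0 at a threshold of 0.01, and 0 to 2 with 1 library left out (0 without GF male 1 or GF male 3, 1 without CV male 2 or CV male 3). In females it was 2, and 1 with all reads, 0 after trend removal, 1 at a threshold of 0.01, 3 with TMM, with voom and with a minimum mean value of 50, each through Arnt, and 1 to 3 with 1 library left out. With the mitochondrial rRNA share as a covariate it was 0 in each of these comparisons, also without CV male 3, an alternative chosen after seeing the data. That covariate left 0 of 11782 genes called over both sexes (1985 at an unadjusted p under 0.05), and 93.5% of the variance of the share lay between the groups, so it and the condition cannot be told apart in this fit; Ahr was at -1.39 ± 0.59 there. For the sexes in GF livers the number was 0, and 1 (Cyp1a2) with all reads, by DESeq2 and without GF female 2. Other causes were not tested.

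The replicate block was not part of the main test. Correlations of deviations between same-numbered libraries were 0.12 to 0.19 between the sexes in CV livers and -0.23 to 0.40 elsewhere. They were also positive between the sexes in GF livers (0.059, 0.40 and 0.068), so they do not decide whether the numbers mark pairs. With the replicate block Cyp1a1 lost its call over both sexes, which left 3, and Cyp1a2 in GF livers gained one between the sexes (adjusted p = 0.0128, limma), which gave 1, also after trend removal. Trend removal with the replicate block, chosen after seeing the data, left 0 in males and 0 in females.

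Some changes turned in sign, and of these only that of Arnt over both sexes had passed the threshold. With all reads Arnt was at 0.065 over both sexes (where it had been called) and 0.18 in females, and Cyp1a1 in females at 0.76. Tiparp turned to -0.27, -0.20 and -0.33 over both sexes, in males and in females outside the loci, to -0.64, -0.40 and -0.89 with the covariate, and to -0.13 in males after thinning to 1886932 reads. With 1 library left out, Tiparp ranged from -0.12 to 0.38 in males and from -0.079 to 0.49 in females, Cyp1a1 from -0.35 to 0.26 in females, and the ratio of Cyp1a2 to Cyp1a1 from -0.014 to 0.33. The ratio of Cyp1a1 to Arnt ranged from 1.02 to 1.48 and that of Ahr to Arnt from -0.55 to -0.23. The difference in mean Ahrr value ranged from -0.52 to 0.24, and that of Cyp1b1 was -0.19 when scaled to reads outside the loci and 0.13 to 2.12 with 1 library left out. Of the settings of single-gene changes, 519 kept direction and side of the threshold, 71 lost the call, 12 gained one and 18 turned in sign. Ahrr and Cyp1b1 had too few reads for the test across genes.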
